A study of Mus musculus with 2 samples.

Results

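The 10 genes described here, Cma1, Tpsb2, Mcpt4, Mcpt8, Prss34, Cpa3, Gzmb, Fcer1a, Ms4a2 and Prg2, encode granule proteases, IgE receptor chains and a granule protein of mast cells, basophils and related granulocytes. They were chosen as a list by name, and all 10 were present among the 32285 genes of both count matrices. Their unique molecular identifiers (UMIs, tags that count single captured RNA molecules) were followed over barcodes with 1000 or more total UMIs and under 10% mitochondrial UMIs, called kept barcodes. The same genes were followed in barcodes of 11 to 99 UMIs, taken as free RNA outside cells. The study compared bone marrow LSK cells (lineage-negative, Sca-1 and c-Kit positive, the fraction enriched for stem and early progenitor cells) of leukemic mice with and without miR-142, by droplet-based single cell RNA sequencing of 3′ transcript ends. All mice were 8 to 10 weeks old on a C57BL/6 background and carried the inducible SCLtTA/BCR-ABL transgene pair, in which the SCL promoter drives BCR-ABL after tetracycline withdrawal, a model of chronic myelogenous leukemia (CML). The miR-142 WT CML library came from mice with intact miR-142, and the miR-142 KO CML library from mice with the gene deleted constitutively. Each group was 1 library, and the number of mice pooled into it was not given in the sources used here, so no difference between WT and KO below has a replicate check and no test was made.

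Mast cells and basophils are granulocytes that carry the high-affinity IgE receptor, and their granules hold serine proteases, carboxypeptidase and amines that are released when the receptor is crosslinked. Mast cell progenitors leave the marrow early and mature in tissues, where chymases and tryptases become their main granule proteins, whereas basophils mature in the marrow and carry their own proteases. Both lineages depend on GATA2, and mast cells keep Kit, the stem cell factor receptor, which is also used to sort LSK cells.

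The 10 genes lie on 6 chromosomes of GRCm38. The protease genes Cma1 (chr14:55941451-55944675), Mcpt4 (chr14:56059629-56062313), Mcpt8 (chr14:56082166-56085273) and Gzmb (chr14:56258838-56262260) share the chymase locus, all on the minus strand. Tpsb2 (chr17:25366305-25369098) and Prss34 (chr17:25298394-25300165) lie near each other on the plus strand of chromosome 17. Cpa3 is at chr3:20215620-20242181, Fcer1a at chr1:173221284-173227214, Ms4a2 at chr19:11615523-11623719 and Prg2 at chr2:84980461-84983632. RefSeq promoter windows were found for 8 of the 10 genes. Windows of 250 bases before the start were searched on both strands for the GATA words AGATAA and also TGATAA, as well as AGATAG and also TGATAG, because GATA factors regulate both lineages. A word was present in 6 of the 8 windows (Cma1, Mcpt4, Prss34, Cpa3, Fcer1a and Ms4a2), and in 26.5% of all 32851 windows. The 150 bases before the RefSeq start of these 6 genes are shown 5′ to 3′ on the coding strand, with GATA words on either strand in capitals, so that the position and strand of each word can be compared:
Cma1, chr14:55944676-55944825, minus strand, GRCm38.p6: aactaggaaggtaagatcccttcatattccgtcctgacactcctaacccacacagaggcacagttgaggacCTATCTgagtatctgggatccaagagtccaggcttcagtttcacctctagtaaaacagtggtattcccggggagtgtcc
Mcpt4, chr14:56062311-56062460, minus strand, GRCm38.p6: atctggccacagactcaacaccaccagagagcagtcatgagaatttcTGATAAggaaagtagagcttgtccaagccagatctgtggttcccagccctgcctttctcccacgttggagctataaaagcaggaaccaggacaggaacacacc
Prss34, chr17:25298244-25298393, plus strand, GRCm38.p6: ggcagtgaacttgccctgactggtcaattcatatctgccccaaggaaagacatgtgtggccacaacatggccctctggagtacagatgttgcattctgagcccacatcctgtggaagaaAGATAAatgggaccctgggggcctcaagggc
Cpa3, chr3:20242182-20242331, minus strand, GRCm38.p6: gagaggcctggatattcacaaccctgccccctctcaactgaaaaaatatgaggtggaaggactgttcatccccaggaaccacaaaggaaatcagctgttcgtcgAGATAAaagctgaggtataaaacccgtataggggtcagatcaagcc
Fcer1a, chr1:173227230-173227379, minus strand, GRCm38.p6: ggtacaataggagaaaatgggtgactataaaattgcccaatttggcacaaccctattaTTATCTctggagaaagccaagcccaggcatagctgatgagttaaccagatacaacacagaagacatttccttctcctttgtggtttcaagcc
Ms4a2, chr19:11623720-11623869, minus strand, GRCm38.p6: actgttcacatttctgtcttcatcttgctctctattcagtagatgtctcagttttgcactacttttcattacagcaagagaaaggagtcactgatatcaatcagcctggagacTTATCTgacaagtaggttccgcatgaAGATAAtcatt

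The first base of the word nearest the start was at -31 in Prss34, -46 in Cpa3, -79 in Cma1, -92 in Fcer1a and -103 in Mcpt4, counted from the RefSeq start. Ms4a2 held words at -37 and -11 and a further one at -224, outside the bases shown. The E-box words CACGTG and CATGTG, searched for MITF-type factors, were present in 2 of the 8 windows (Fcer1a and Prss34) and in 17.6% of all windows. TATAAA was present in 3 of 8 (Fcer1a, Cpa3 and Mcpt4) and in 12.4% of all windows. A matching word describes the sequence and is not a measured binding site.

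The microRNA that separates the groups gives rise to these mature strands, shown with the seed (bases 2 to 8) in capitals because the seed decides which transcripts a microRNA pairs with:
mmu-miR-142a-5p, chr11:87756867-87756887, plus strand, GRCm38.p6: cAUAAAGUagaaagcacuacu
mmu-miR-142a-3p, chr11:87756903-87756925, plus strand, GRCm38.p6: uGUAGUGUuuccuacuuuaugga

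The words complementary to these seeds, ACTTTAT for the 5p strand and ACACTAC for the 3p strand, were searched in the longest annotated 3′ UTR of each gene. None of the 10 genes held either word, in UTRs of 82 to 1950 bases, while 14.3% and 6.03% of 21022 genes with a UTR (median length 961 bases) did. The absence says only that these letters are not in these UTRs.

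The kept barcodes numbered 6658 in WT and 6711 in KO, with 143278500 and 164670313 UMIs and medians of 15914.5 and 19152 UMIs per barcode. The miR-142 host transcript Mir142hg was read at 9.59 counts per 1000000 UMIs (CPM, from 1374 UMIs) in WT and 0.121 CPM (20 UMIs) in KO. Which part of the locus was deleted was not given in the sources used here. Free RNA barcodes numbered 406586 in WT and 429634 in KO. Only 8 barcode sequences were kept in both libraries, of which 1 was mast-like in WT. Barcodes were gated by marker genes that exclude the 10 members, into mast-like, basophil-like, undivided mast/basophil and 8 other groups including the remainder called ungated. UMIs from the 3′ end were not divided by transcript length, so levels of different genes are compared as captured molecules. Intervals are exact 95% Poisson or binomial intervals of the counts. They cover counting error only and are narrower than the spread between barcodes, since UMIs of 1 cell are not independent.

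Mast-like barcodes numbered 683 in WT (10.3% of kept barcodes, 9.54 to 11) and 333 in KO (4.96%, 4.45 to 5.51), a difference of -5.3 percentage points (-6.2 to -4.4). Their top genes by fold in both libraries were Cma1, Tpsb2, Mcpt4 and Cpa3. Of 28 listed mast cell markers, 26 in WT and 24 in KO reached 20 CPM and at least 2-fold the level of other barcodes. Most of the 28 belong to the gate score, so their rise was set by the gating and does not bear on identity. Cma1, Tpsb2, Mcpt4 and Gzmb, also among the 28, took no part in the score, but the gates were set with their values in view. WT mast-like barcodes were shallow, with a median of 2142 UMIs against 7745 in KO. With a depth minimum set at 0.1 of each library's 99th percentile (8435 UMIs in WT, 7767 in KO), mast-like barcodes numbered 102 in WT (1.94%) and 164 in KO (2.97%), so the order of the libraries turned. Without the gate for innate lymphoid-like barcodes, which numbered 52 in WT and 667 in KO, the difference was -1.71 points. Basophil-like barcodes numbered 92 in WT (1.38%, median 18927.5 UMIs) and 103 in KO (1.53%, median 15697 UMIs), a difference of 0.153 points (-0.256 to 0.564) that counting error covers. In these sorted cells and in free RNA, fewer cells of a type and less RNA per cell cannot be told apart from summed levels.

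**Figure D1:**
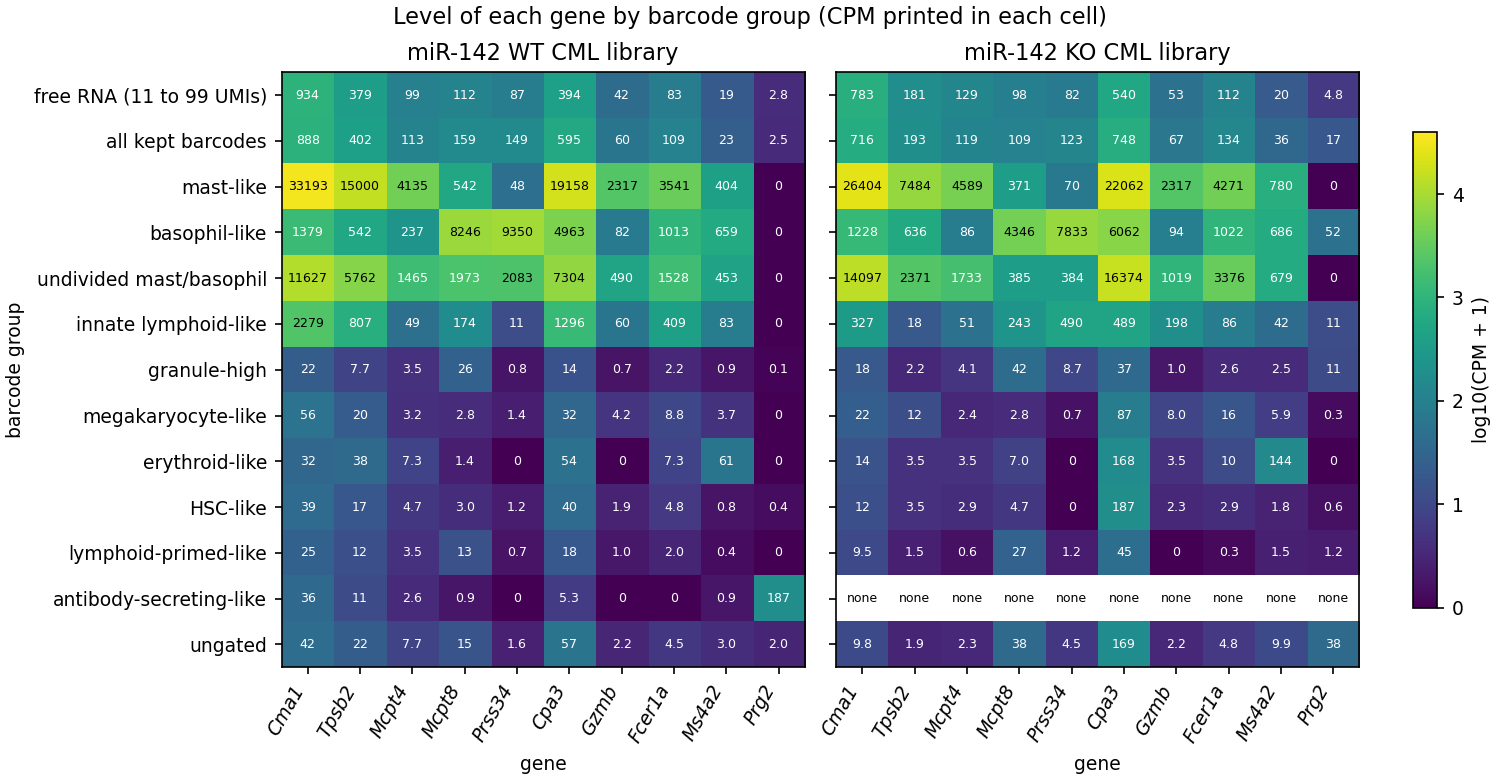
Level of each gene (CPM, printed in each cell and coloured as log10(CPM + 1)) in free RNA, in all kept barcodes and in each barcode group of the miR-142 WT and miR-142 KO libraries. Cma1, Tpsb2 and Mcpt4 are highest in the mast-like row (33193, 14999.7 and 4135 CPM in WT), Mcpt8 and Prss34 in the basophil-like row, and KO has no antibody-secreting-like barcodes.

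Over all kept barcodes, the chymase Cma1 was the most abundant of the 10 genes in WT (888 CPM) and the carboxypeptidase Cpa3 in KO (748 CPM). Of the 10 genes, 4 were lower in KO with an interval under 0 (Cma1, Tpsb2, Mcpt8 and Prss34). Another 6 were higher with an interval above 0 (Mcpt4, Cpa3, Gzmb, Fcer1a, Ms4a2 and Prg2). The share of all genes with such an interval was not taken. Counting intervals are narrow at these UMI totals, so the count is not read as particular to the 10 genes. Of the 9 genes with a mean of 10 CPM or more, Tpsb2 alone was at least 2-fold lower in KO and none was at least 2-fold higher. Of all 7537 genes with that mean, 86 (1.14%) were at least 2-fold lower and 80 (1.06%) at least 2-fold higher. Median-of-ratios size factors moved every all-kept log2 value up by 0.19, which turned none of the 10 directions but put Tpsb2 at -0.87, inside 2-fold.

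The 3 mast cell proteases, chymase Cma1, tryptase Tpsb2 and chymase Mcpt4, together stood at 1403 CPM in WT against 1029 CPM in KO, a log2 KO over WT of -0.45 (-0.46 to -0.44). Cma1 was read at 888 CPM in WT against 716 CPM in KO (log2 -0.31). Tpsb2, which encodes a tryptase stored as a tetramer on heparin, was read at 402 CPM in WT against 193 CPM in KO (log2 -1.06, -1.08 to -1.04). Mcpt4, the chymase typical of connective tissue mast cells, was read at 113 CPM and 119 CPM (log2 0.09, 0.06 to 0.12). The proteases therefore did not shift together, and the tryptase difference was the largest of the 3. With the minimum at 0.1 of the 99th percentile the summed log2 value was 0.12, and the Cma1 value was 0.23, both on the other side of 0.

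Inside mast-like barcodes the order of the proteases was the same in both libraries, Cma1 above Tpsb2 above Mcpt4. Cma1 stood at 33193 CPM in WT against 26404 CPM in KO (log2 -0.33, -0.34 to -0.32). This order did not hold at every depth. KO was lower at 1000 to 1999 UMIs (41457 CPM in WT, 30039 in KO) and at 15000 or more (27575 and 19825 CPM). It was higher at 2000 to 4999 UMIs (42258 and 45112 CPM) and at 5000 to 14999 UMIs (32008 and 33513 CPM). Tpsb2 stood at 14999.7 CPM in WT against 7484 CPM in KO (log2 -1.0, -1.02 to -0.98). Mcpt4 stood at 4135 CPM in WT against 4589 CPM in KO (log2 0.15, 0.12 to 0.18), but gates at 500 CPM or without the innate lymphoid step gave -0.07 and -0.36. Tpsb2 was the only 1 of 9 tested genes that was at least 2-fold lower in KO, beside 1.57% of all 2543 genes at 50 CPM or more in this group, and none of the 9 was at least 2-fold higher, beside 4.33%. The Tpsb2 difference was negative under every alternative tried, from -0.76 with each barcode weighted equally to -1.54 without the innate lymphoid gate. Its size depended on depth. At 1000 to 1999 UMIs Tpsb2 stood at 18924 CPM in WT against 17312 CPM in KO. At 15000 UMIs or more it stood at 11812 and 5877 CPM.

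**Figure D2:**
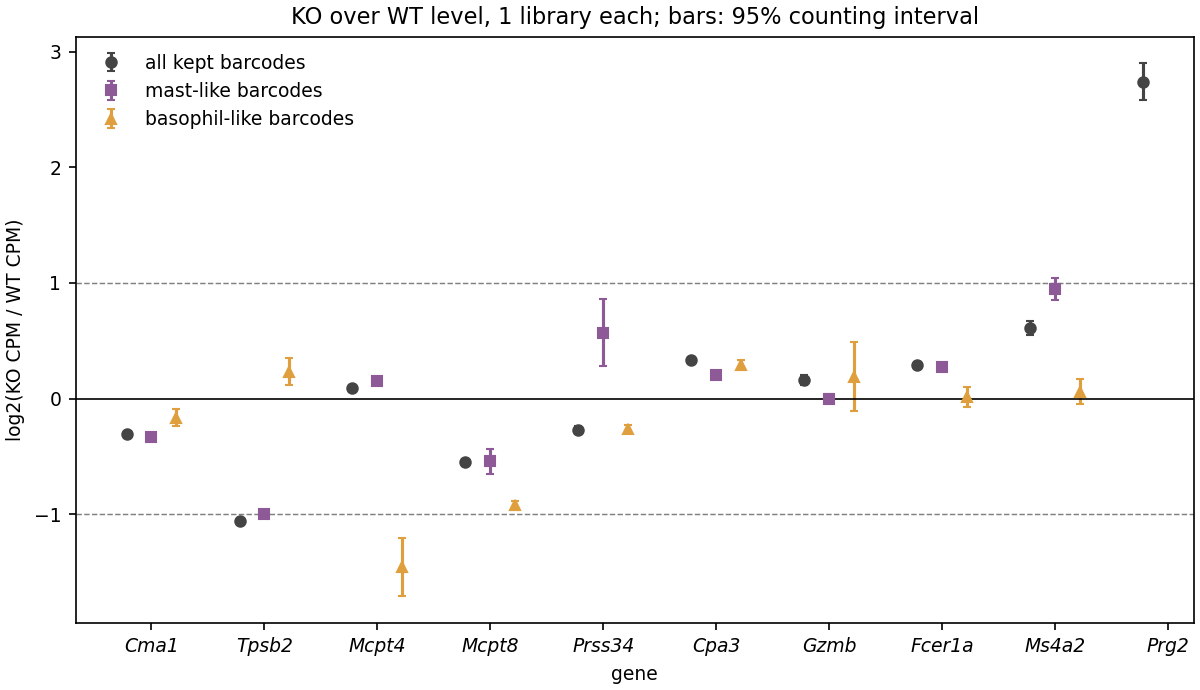
Log2 ratio of KO to WT CPM for each gene over all kept, mast-like and basophil-like barcodes, with 95% counting intervals and dashed lines at a 2-fold difference. Tpsb2 sits at -1.06 and -1.0 over all kept and mast-like barcodes and at 0.23 in basophil-like barcodes, and Prg2, drawn over all kept barcodes only, sits at 2.74.

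The lower Tpsb2 level in KO came with many mast-like barcodes in which no Tpsb2 was read. The median mast-like barcode held 17076 CPM of Tpsb2 in WT (quartiles 9227 and 24917) and 1364 CPM in KO (quartiles 0 and 12965), although the highest KO barcode, at 101449 CPM, was above the highest WT barcode at 66704 CPM. Without thinning, 98.5% of WT and 71.5% of KO mast-like barcodes had a Tpsb2 UMI. With every barcode thinned to 1000 UMIs, 3.37% of WT and 40.5% of KO mast-like barcodes had none, a difference of 37.2 percentage points (31.8 to 42.6). Thinned HSC-like barcodes, a group that should lack the gene, had a Tpsb2 UMI in 1.74% of WT (17 of 979) and 0 of 182 in KO, where 3 counts, the limit used here for a count of 0, would be a share of 1.65%. KO mast-like barcodes without Tpsb2 were present at every depth, from 31.8% at 1000 to 1999 UMIs to 21% at 15000 UMIs or more, while WT ranged from 0.893% to 3.51%.

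The barcodes without Tpsb2 were mast-like by the gate markers, as the gating required, and differed from the rest. Among mast-like barcodes with 20 or more Cma1 UMIs, an alternative chosen after seeing the data, 8 of 648 in WT (1.23%) and 63 of 289 in KO (21.8%) had no Tpsb2 UMI. Of those 63, 59 also had no UMI of Tpsab1, the neighbouring alpha/beta tryptase gene, as had all 8 in WT. Tpsb2 and Tpsab1 are close paralogs, and 3′ reads that match both can be lost or split in counting, so the values of single tryptases are uncertain. Among KO mast-like barcodes with 2000 or more UMIs, 81 of 289 had no Tpsb2 UMI. Of these 81, 12 had no Cma1 UMI either. In those 81, Tpsab1 stood at 4.91 CPM against 849.8 CPM in the other 208, and the gamma tryptase Tpsg1 at 30.4 against 331 CPM. Cma1 stood at 11744 against 31942 CPM, and Cpa3 at 9745 against 26970.4 CPM. Mcpt4 went the other way, at 5411 against 4159.6 CPM, and so did Mcpt1, a chymase of mucosal mast cells, at 540.2 against 68.3 CPM. The innate lymphoid genes Il7r and Gata3 stood at 50.1 and 34.4 CPM in the 81 barcodes and at 26.8 and 9.05 CPM in the others, and their part in the result was not tested. WT held only 5 of 370 such barcodes (1.35%), so the same comparison rests on few cells there.

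**Figure D3:**
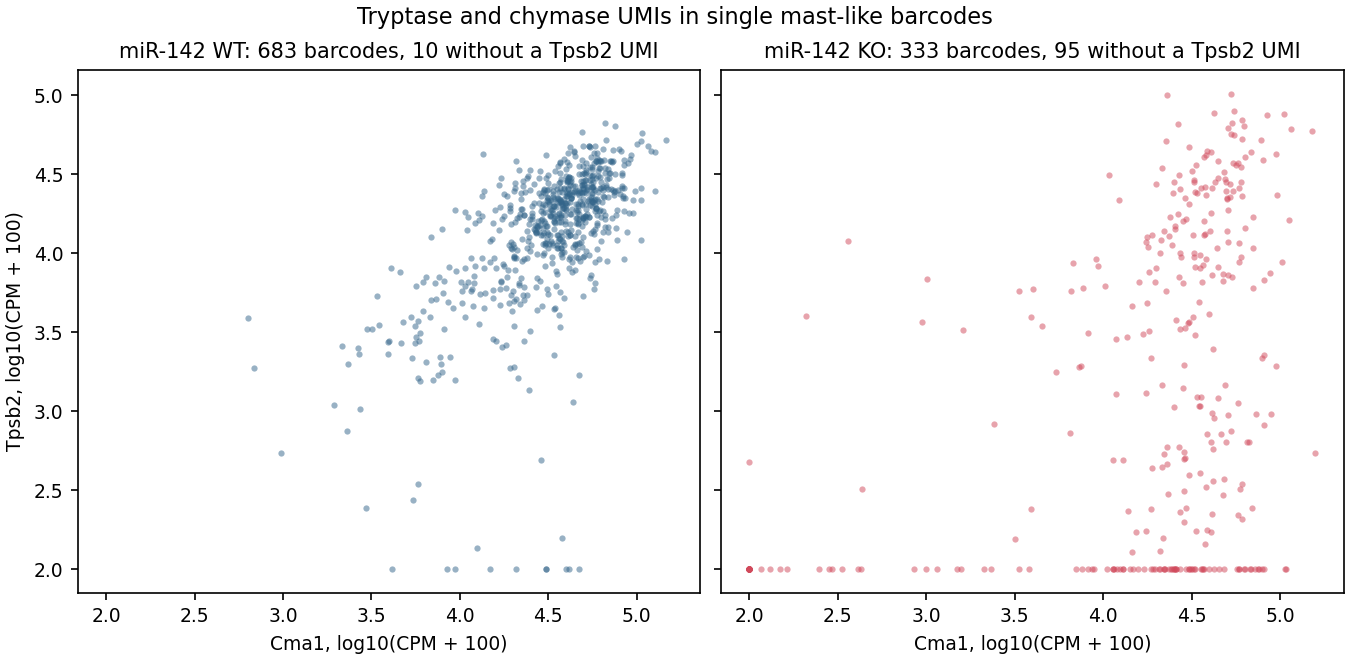
Tpsb2 against Cma1 in single mast-like barcodes, each axis log10(CPM + 100), with 683 barcodes in WT and 333 in KO. In WT 10 barcodes lie on the lower edge with no Tpsb2 UMI, and in KO 95 do, most of them at Cma1 levels within the range of the other barcodes.

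Mcpt4 was present in part of the mast-like barcodes of both libraries. At 2000 UMIs or more, 40.5% of WT and 37% of KO mast-like barcodes had Cma1 but no Mcpt4. After thinning to 1000 UMIs, 54.6% of WT (50.8 to 58.4) and 46.8% of KO (41.4 to 52.4) had a Mcpt4 UMI. Its level was lowest in the deepest barcodes. In WT it was 8955 CPM at 1000 to 1999 UMIs and 1026 CPM at 15000 UMIs or more, and in KO it was 9067 CPM in the shallowest bin, 13113 CPM at 2000 to 4999 UMIs and 1742 CPM in the deepest. Tpsb2 fell from bin to bin in KO, from 17312 to 5877 CPM, and reached its highest WT level, 20551 CPM, at 2000 to 4999 UMIs. The KO library had 44 of its 333 mast-like barcodes in the shallowest bin and WT 313 of 683, so summed levels weigh different depths in the 2 libraries.

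The 2 basophil proteases, Mcpt8 and Prss34, together stood at 308 CPM in WT against 232 CPM in KO over all kept barcodes, a log2 value of -0.41 (-0.43 to -0.39). Mcpt8, a granzyme-like protease used as a basophil marker in mice, was read at 159 CPM in WT against 109 CPM in KO (log2 -0.55). Prss34, a tryptase-like protease of basophils, was read at 149 and 123 CPM (log2 -0.27). Inside basophil-like barcodes Mcpt8 stood at 8246 CPM in WT against 4346 CPM in KO (log2 -0.92, -0.96 to -0.89), and Prss34 at 9349.9 and 7833 CPM (log2 -0.26, -0.29 to -0.23). Mcpt8 was lower in KO both at 5000 to 14999 UMIs (6458 and 2706 CPM) and at 15000 UMIs or more (8584 and 4813 CPM). Prss34 was not, at 6213 CPM in WT against 9025 CPM in KO in the first of these bins and 9843 and 7637 CPM in the second. With each barcode weighted equally its log2 value was 0.06.

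Single barcodes differed widely in the basophil-like group. Mcpt8 had a median of 5513 CPM in WT (quartiles 823 and 11466) and 1524 CPM in KO (quartiles 67.2 and 6463). Prss34 had a median of 3709.6 CPM in WT against 447 CPM in KO, while its highest barcodes reached 83287 and 105687 CPM. The summed levels rested on few barcodes, with 50% of all Prss34 UMIs in 11 barcodes of WT and 16 of KO. After thinning to 1000 UMIs, 69.6% of WT (59.1 to 78.7) and 47.6% of KO (37.6 to 57.6) basophil-like barcodes had a Prss34 UMI, and 75% and 60.2% had a Mcpt8 UMI. Thinned HSC-like barcodes had 0.306% for each gene in WT and 0 of 182 in KO. The mast cell protease Mcpt4 was the only 1 of 9 tested genes at least 2-fold lower in KO in this group, at 237 and 86.3 CPM (log2 -1.46), beside 3.65% of 2684 genes, and none was at least 2-fold higher, beside 1.83%. That Mcpt4 value rested on single barcodes, since 1 of 5434 UMIs held 413 of the 506 Mcpt4 UMIs in WT and 1 of 5915 UMIs held 161 of the 177 in KO. Without those 2 barcodes the levels were 43.7 and 7.82 CPM.

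Mcpt8 was also read outside the mast and basophil gates. In the granule-high group, led by the neutrophil granule genes Elane and Mpo, it stood at 26.2 CPM in WT against 41.6 CPM in KO, and in ungated barcodes at 14.8 and 38.5 CPM. Unthinned, 57% of WT and 67.4% of KO granule-high barcodes had a Mcpt8 UMI, at median depths of 56265 and 40036 UMIs. Of the Mcpt8 and Prss34 UMIs together, Mcpt8 made up 97.1% in WT and 82.8% in KO granule-high barcodes (in KO, 2 barcodes held 799 of the 928 Prss34 UMIs) and 90.2% and 89.6% in ungated ones, against 56.2% and 54.3% in free RNA and 46.9% and 35.7% in basophil-like barcodes. In all, 40.5% of KO Mcpt8 UMIs and 10.4% of WT ones lay outside the gates. Prss34 outside the gates lay at 17.8% of its UMIs in KO and 0.812% in WT, and stood at 489.7 CPM in the 667 innate lymphoid-like barcodes of KO, where 3.6% of barcodes had a UMI, against 11.4 CPM in the 52 of WT.

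Some barcodes held both mast cell and basophil proteases. With 20 or more UMIs of each set required, 39 barcodes in WT and 24 in KO held both, which is 4.62% and 6.05% of the barcodes with the mast set and 36.4% and 24.2% of those with the basophil set. They had medians of 17592 UMIs in WT and 21317 in KO, against 2138 and 7044 for barcodes with the mast set alone and 26440.5 and 24506 for those with the basophil set alone. Of these, 24 in WT and 14 in KO were mast-like, 9 and 4 basophil-like. The part of doublets in these barcodes was not tested. In the basophil-like group 57 WT and 58 KO barcodes were led by the basophil proteases (at least 20 UMIs and 5-fold the other set), while 15 and 16 were led by the mast proteases. In the undivided group Mcpt8 and Prss34 stood at 1973 and 2083 CPM in WT and 385 and 384 CPM in KO (log2 -2.36 and -2.44). Of the 102 WT barcodes, 2 held 659 of the 967 Mcpt8 UMIs and 846 of the 1021 Prss34 UMIs, and without the highest 2 of each gene the WT levels were 688 and 391 CPM. In KO, 1 barcode held 258 of the 343 Prss34 UMIs. Mast-like barcodes held a median of 6 of the 10 genes in each library, and 5 after thinning.

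Cpa3, a carboxypeptidase that trims peptides in mast cell granules and is read early in the mast cell and basophil lineages, stood over all kept barcodes at 595 CPM in WT against 748 CPM in KO (log2 0.33, 0.32 to 0.34). In mast-like barcodes it stood at 19158 and 22062 CPM (log2 0.20), in basophil-like barcodes at 4963 and 6062 CPM (log2 0.29), and in undivided barcodes at 7304 and 16374 CPM (log2 1.16). The mast-like value was -0.31 without the innate lymphoid gate, -0.02 with the gate at 500 CPM and -0.13 with the depth minimum at 0.1 of the 99th percentile. Its level was higher in deeper WT mast-like barcodes, from 10422 CPM at 1000 to 1999 UMIs to 25999 CPM at 15000 or more.

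Cpa3 was higher in KO while Cma1 and Tpsb2 were lower in HSC-like and ungated barcodes. The same directions were read in granule-high, megakaryocyte-like, lymphoid-primed-like and erythroid-like barcodes, with Cpa3 at log2 1.45, 1.43, 1.36 and 1.65. The erythroid-like Cma1 difference was within counting error (-3.19 to 0.37). Innate lymphoid-like barcodes differed, with Cpa3 lower in KO (log2 -1.41). In HSC-like barcodes, gated by stem cell genes such as Hlf and Mecom, Cpa3 stood at 39.7 CPM in WT against 187 CPM in KO (log2 2.24, 2.03 to 2.44). Cma1 stood at 39.1 and 12.3 CPM there and Tpsb2 at 16.6 and 3.51 CPM. In ungated barcodes Cpa3 stood at 57.3 CPM in WT against 169 CPM in KO (log2 1.56, 1.51 to 1.62). Cma1 stood there at 42.3 and 9.77 CPM and Tpsb2 at 21.6 and 1.94 CPM. After thinning to 1000 UMIs, 3.88% of WT (2.76 to 5.29) and 15.9% of KO (10.9 to 22.1) HSC-like barcodes had a Cpa3 UMI, and 5.86% and 12.7% of ungated ones. The HSC-like barcodes numbered 979 in WT and 182 in KO, with medians of 10685 and 8640.5 UMIs.

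The ratio of Cpa3 to Cma1 was also taken in free RNA and in each group. Of their summed UMIs, Cpa3 made up 29.7% of free RNA in WT and 40.8% in KO. In HSC-like barcodes it made up 50.4% in WT (47.1 to 53.6) and 93.8% in KO (90.7 to 96.1), and in ungated barcodes 57.5% and 94.5%. In WT the granule-high, megakaryocyte-like and innate lymphoid-like groups had 38.5%, 36.5% and 36.2%, near the 36.6% of mast-like barcodes. Tpsb2 made up 28.9% of Tpsb2 and Cma1 UMIs in WT free RNA and 26.1% to 33.8% in 6 of the 8 WT groups outside the gates, the exceptions being erythroid-like (54.2%, 39.2 to 68.6) and antibody-secreting-like barcodes (22.6%, 12.3 to 36.2). In KO it made up 18.8% of free RNA. The KO HSC-like, lymphoid-primed-like and ungated groups had intervals that held this value, while innate lymphoid-like (5.27%, 4.28 to 6.42) and granule-high barcodes (11.1%, 9.78 to 12.5) were under it and megakaryocyte-like barcodes (34.3%, 25.1 to 44.6) above it. Several of these KO values rested on few barcodes. In megakaryocyte-like barcodes, 1 barcode of 5245 UMIs held 28 of the 34 Tpsb2 and 49 of the 65 Cma1 UMIs. In innate lymphoid-like barcodes, 2 held 1296 of the 1671 Cma1 UMIs. In granule-high barcodes, 1 held 131 of the 239 Tpsb2 UMIs. The part of free RNA in the ratios of this paragraph was not tested.

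**Figure D4:**
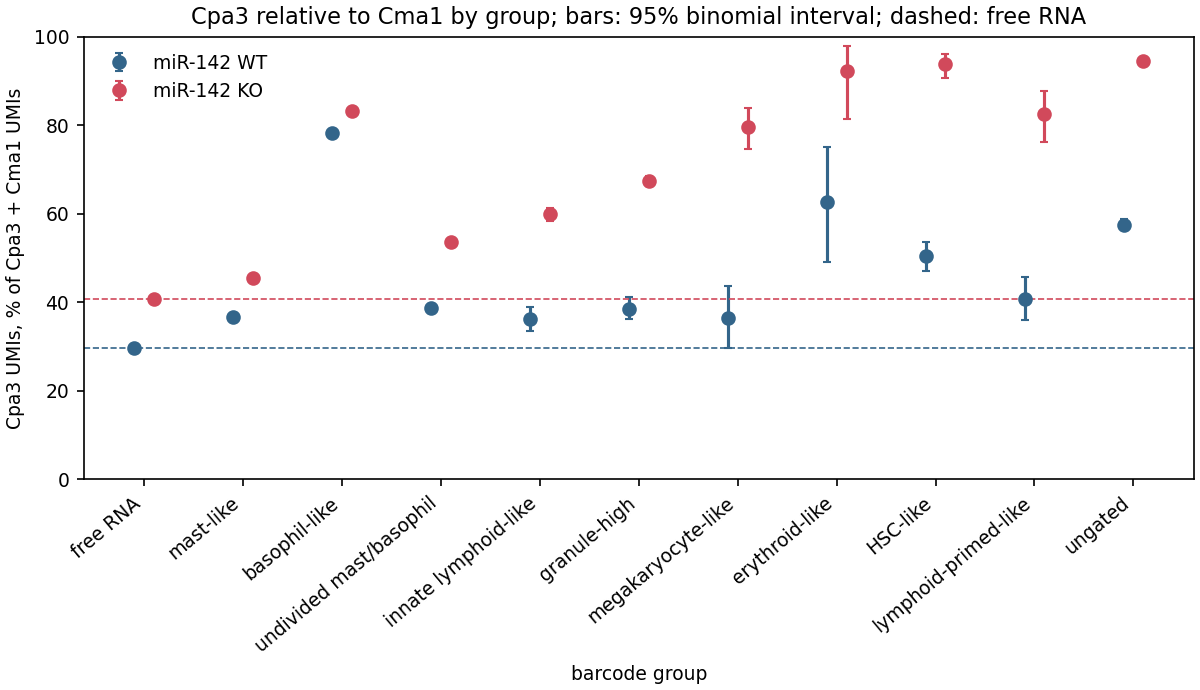
Cpa3 UMIs as a percent of Cpa3 and Cma1 UMIs in free RNA (dashed lines) and in each barcode group of WT and KO, with 95% binomial intervals. The KO groups outside the mast and basophil gates lie between 59.9% and 94.5%, all above the KO free RNA value of 40.8%.

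Gzmb encodes granzyme B, a protease of cytotoxic lymphocytes that mast cells also make. It was almost confined to mast-like barcodes, which held 92.3% of its UMIs in WT and 78.8% in KO. It stood there at 2317 CPM in WT against 2317 CPM in KO (log2 -0.00, -0.04 to 0.04). In both libraries its level was higher in deeper barcodes. It rose from 889.8 CPM at 1000 to 1999 UMIs to 3284 CPM at 15000 or more in WT. The KO level rose from 836 to 2706 CPM. Mcpt4, in contrast, was lowest in the deepest bin. Between these ends Gzmb stood at 1492 CPM in WT against 841 CPM in KO at 2000 to 4999 UMIs. At 5000 to 14999 UMIs it stood at 2049 and 2064 CPM. The equal summed Gzmb levels thus weigh different depths in the 2 libraries. After thinning, 50.5% of WT and 48.6% of KO mast-like barcodes had a Gzmb UMI. Of the cytotoxic granule genes fixed beside it (Gzma, Gzmk, Prf1, Nkg7, Klrd1 and Ncr1), only Nkg7 had 20 or more UMIs in mast-like barcodes, at 146 CPM in WT against 93.1 CPM in KO, while Gzmk and Prf1 were at 0 in both. In KO innate lymphoid-like barcodes Gzmb stood at 198 CPM, with a UMI in 9.15% of them, and in WT at 60.1 CPM.

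Fcer1a and Ms4a2 encode the alpha chain, which binds IgE, and the beta chain, which amplifies the signal, of the high-affinity IgE receptor. Fcer1a stood at 3541 CPM in WT against 4271 CPM in KO mast-like barcodes (log2 0.27, 0.24 to 0.30), and at 1013 and 1022 CPM in basophil-like barcodes (log2 0.01, -0.07 to 0.10). The mast-like value was -0.24 without the innate lymphoid gate. Ms4a2 stood at 404 CPM in WT against 779.7 CPM in KO mast-like barcodes (log2 0.95, 0.85 to 1.04), and at 659 and 686 CPM in basophil-like barcodes (log2 0.06, -0.05 to 0.17). The mast-like difference in Ms4a2 was present in all 4 depth bins, from 536 and 1105 CPM at 1000 to 1999 UMIs to 337 and 638 CPM at 15000 or more. After thinning, 34% of WT (30.4 to 37.7) and 56.2% of KO (50.6 to 61.6) mast-like barcodes had a Ms4a2 UMI. In WT the beta chain was thus lower in mast-like than in basophil-like barcodes, and the alpha chain higher. Erythroid-like barcodes, of which there were 27 in WT and 18 in KO, held Ms4a2 at 61 and 144 CPM, and 22.2% of them had a UMI in each library. Those levels rested on few barcodes, since 2 held 33 of the 42 UMIs in WT and 2 held 37 of the 41 in KO. Without them the levels were 14.7 and 17.6 CPM.

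The rest of the IgE receptor pathway was within 2-fold between the libraries in mast-like barcodes. All 12 listed genes, from the receptor gamma chain Fcer1g to the kinases Lyn, Fyn, Syk and Btk and the adaptors Lat, Lat2 and Lcp2, had 20 or more UMIs. Of all 9458 genes with 20 or more UMIs in either library in these barcodes, 6.5% had a KO level of 2-fold or more above WT and 4.32% one of 2-fold or more below it, so most genes were also within 2-fold. Fcer1g stood at 2959 CPM in WT against 2013 CPM in KO, Lyn at 109 and 99 CPM, and Syk at 33.7 and 43.6 CPM. The interval of the log2 value lay under 0 for Fcer1g (-0.56), Fyn (-0.96) and Inpp5d (-0.31). It lay above 0 for Plcg2 (0.63), Lat (0.39), Syk (0.37) and Lat2 (0.17). The share of all genes with such intervals was not taken. In basophil-like barcodes 11 of 12 were within 2-fold, the exception being Lcp2 at 141 and 60.9 CPM, beside 4.49% of all 8071 genes with 20 or more UMIs that were at least 2-fold lower and 5.18% that were at least 2-fold higher.

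Prg2 encodes eosinophil granule major basic protein, and its UMIs came from a handful of barcodes. Over all kept barcodes it stood at 2.51 CPM (360 UMIs) in WT against 16.7 CPM (2755 UMIs) in KO, a log2 value of 2.74 (2.58 to 2.90), with a mean just under the 10 CPM floor used above. In KO, 5 barcodes held 96.6% of its UMIs, with 1418, 767, 190, 182 and 105. Each of the 5 also held Prg3, its eosinophil homolog, at 98, 51, 16, 29 and 43 UMIs, and 3 of them were granule-high, 1 ungated and 1 basophil-like. In WT a single barcode of 1048 UMIs held 117 of the 360, with 5 Prg3, 2 Epx and 3 Ear6 UMIs, and the next 4 were antibody-secreting-like, led by immunoglobulin genes. WT antibody-secreting-like barcodes, 41 in number, held Prg2 at 187 CPM (163 to 214) with a UMI in 70.7% of them, and KO had none of this group. Without the top barcode of each library Prg2 stood at 1.7 CPM in WT against 8.12 CPM in KO. No Prg2 UMI was read in the 683 WT or 333 KO mast-like barcodes, where 3 counts would be 0.88 and 0.803 CPM.

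Free RNA held Cma1, Tpsb2 and Mcpt4 at nearly the level of the kept barcodes and most of the other genes at a lower level. Cma1 stood at 934 CPM in WT against 783 CPM in KO free RNA, which was above its kept level, with ratios of kept to free of 0.951 and 0.914. Tpsb2 stood at 379 and 181 CPM, with ratios of 1.06 and 1.07, and so carried the same order of libraries as the kept barcodes. Cpa3 stood at 394 and 539.9 CPM (ratios 1.51 and 1.38), Prss34 at 87.4 and 82.1 CPM (1.7 and 1.5) and Mcpt8 at 112 and 97.5 CPM (1.42 and 1.11). Ms4a2 stood at 19 and 20.2 CPM (1.23 and 1.76). The part of free RNA in UMIs outside the gates was not tested. Unthinned, 47.8% of WT and 19.5% of KO kept barcodes had a Cma1 UMI, but 88.9% and 83.7% of all Cma1 UMIs lay in mast-like barcodes, and 95 and 76 barcodes held 50% of them.

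The mast proteases did not stop at the 1000 UMI minimum. In barcodes of 300 to 999 UMIs, outside the kept set and with no mitochondrial filter, they stood at 25478 CPM in WT (2174 barcodes) and 6654 CPM in KO (529 barcodes). The level peaked at 1000 to 2999 UMIs, with 55537 CPM in WT against 25733 CPM in KO, and stood at 641 and 694 CPM at 10000 UMIs or more. At 100 to 299 UMIs it was 3309 CPM in WT against 576 CPM in KO, above the free RNA level of 1412 CPM in WT and under that of 1093 CPM in KO. The basophil proteases showed no such peak, with 148 and 129.8 CPM at 1000 to 2999 UMIs and 321 and 232 CPM at 10000 or more. The WT and KO order of the mast proteases in kept barcodes thus rested on shallow barcodes, and in the deepest bin KO was the higher of the 2 libraries.

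**Figure D5:**
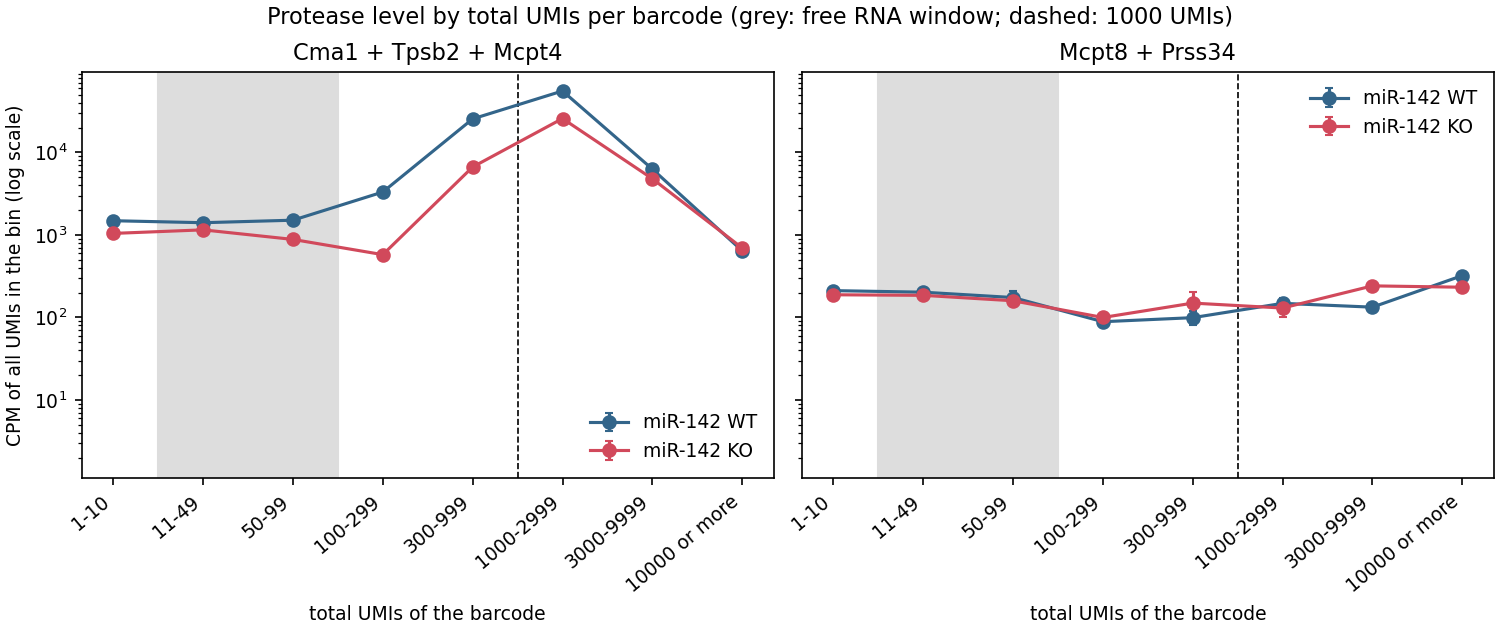
Summed CPM (log axis) of the mast proteases Cma1, Tpsb2 and Mcpt4 and of the basophil proteases Mcpt8 and Prss34 by the total UMIs of the barcode, in WT and KO, with the free RNA window in grey and the 1000 UMI minimum dashed. The mast proteases peak at 1000 to 2999 UMIs (55537 and 25733 CPM), and the basophil proteases stay between 88.6 and 321 CPM.

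Among the other genes of the mast cell and basophil program, counts of 2-fold differences in mast-like barcodes are to be read beside the 6.5% higher and 4.32% lower over all genes with 20 or more UMIs. In the chymase locus Mcpt1 stood at 5.58 CPM (19 UMIs) in WT against 197 CPM (737 UMIs) in KO mast-like barcodes, 35.4-fold higher, while Mcpt2 stood at 313 and 235 CPM and Mcpt9 and the granzymes Gzmc to Gzmn were at 0 or 1 UMI. In the tryptase family Tpsab1 stood at 654 and 618 CPM (log2 -0.08) and Tpsg1 at 265 and 248 CPM (log2 -0.10). Both were within 2-fold, while Tpsb2 was only just past it (0.499-fold). Tpsab1 was a gate marker, as were Csf2rb2, Mrgprb2, Hpgds and Mitf below, so their levels here were partly set by the gate. Among 10 receptors, 2 were at least 2-fold higher in KO, the cytokine receptor chains Csf2rb2 (313 and 883 CPM) and Crlf2 (157 and 328 CPM), and 1 lower, Mrgprb2, the mast cell receptor for basic secretagogues (201 and 11.5 CPM, log2 -4.13). The stem cell factor receptor Kit stood at 787 and 515 CPM. Of 6 lipid mediator genes with 20 or more UMIs, Ptgs1 was higher (54.3 and 182 CPM) and Hpgds lower (104 and 27.3 CPM), and 4 were within 2-fold. Among 9 regulators, Runx1 (118 and 238 CPM) and Cebpa (4.11 and 11.5 CPM) were at least 2-fold higher, while Gata2 stood at 483 and 466 CPM and Mitf at 83 and 48.4 CPM. Of the eosinophil granule list only Il5ra, a receptor chain for IL-5, had 20 or more UMIs, and it was lower (8.8 and 1.34 CPM, 30 and 5 UMIs). Of 9 genes of the granule matrix and amines, 8 were within 2-fold, and Ddc, which makes serotonin, was lower (35.8 and 17.7 CPM).

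In basophil-like barcodes, 5 of 7 cytokine genes with 20 or more UMIs were at least 2-fold lower in KO and none higher. Over all genes with as many UMIs, 4.49% were at least 2-fold lower and 5.18% at least 2-fold higher. Il4, Il6, Ccl3 and Csf1 were gate markers, and Il6, Ccl3, Ccl4 and Csf1 helped to divide basophil-like from mast-like barcodes. Their levels in both groups were therefore partly set by the gate, and the count is not a free result. Hdc, Adora3 and Mrgprb2, given below, were gate markers as well. Ccl3 stood at 1085 CPM in WT against 337 CPM in KO, Ccl4 at 791 and 292 CPM, Il4 at 118 and 44.8 CPM, Il13 at 16.4 and 5.85 CPM and Csf1 at 60 and 29.7 CPM. In mast-like barcodes 5 of 7 were within 2-fold, with Il13 higher (22.3 and 57.5 CPM) and Ccl4 lower (42.3 and 12.6 CPM). Hdc, which makes histamine, stood at 1029 and 482 CPM in basophil-like and at 1390.3 and 995 CPM in mast-like barcodes. Bhlhe40, a regulator of cytokine genes, stood at 90.4 and 31.7 CPM in basophil-like and 95.7 and 161 CPM in mast-like barcodes. Of 9 receptors with 20 or more UMIs, Adora3 and Mrgprb2 were at least 2-fold lower in KO and 7 were within 2-fold. Whether these differences differ between the gates was not tested.

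The genes most like the proteases in pattern were named by Pearson's r of log2(CPM + 1) over 20 points, each a barcode group of 1 library, among 4678 genes. Points of 1 library share its depth and free RNA. Nearest to the summed mast proteases were Hs6st2 (r 0.979), an enzyme that sulfates heparan chains, Pla2g7 (0.974), Pakap (0.971), 4930455G09Rik (0.964) and Tpsg1 (0.960). Hs6st2 stood at 223 CPM in WT against 235 CPM in KO mast-like barcodes. Nearest to the basophil proteases were the chemokine gene Ccl6 (0.940), the long noncoding RNA Morrbid (0.913), Lgals3 (0.912), Rnase12 (0.911) and Osm (0.906). Ccl6 stood at 6534 CPM in WT against 678 CPM in KO basophil-like barcodes, and Rnase12 at 203 and 204 CPM.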

How the data were processed

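The deposited values were raw UMI counts per gene and barcode, unfiltered for cells, which the authors made with Cell Ranger on mm10, version 6.1.2 per the submitters' processing notes. No values were normalized by the authors. The members and gene lists were chosen with earlier results of these data known, and the gates were set with the members' values in view. Innate lymphoid-like barcodes had 2 or more of Il7r, Icos and Gata3 at 500 CPM or more. Mast or basophil barcodes had 1000 CPM or more and 3 or more genes of 25 markers, 10 broadly read markers of 35 being left out, and were divided where 1 marker set had 2 or more UMIs and over 2-fold the other set. Named genes were all members, listed companions with 20 or more UMIs or at 0, and the 5 nearest genes by r. Scrublet's automatic threshold called 1 barcode per library and did not work, so 355 WT and 360 KO barcodes with the highest scores were left out as an alternative, and doublets otherwise stayed in. Gene positions are from GENCODE on GRCm38 and sequences from RefSeq on GRCm38.p6. CPM, exact intervals and thinning used Python 3.11.15, numpy 2.4.6, scipy 1.17.1, pandas 2.3.3 and scanpy 1.11.5, and figures matplotlib 3.10.9. The counting scripts were tested on simulated data.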

Additional observations from a re-analysis of the deposited data

Results flagged for a closer look

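The values of 3 genes pointed in opposite directions in mast-like and basophil-like barcodes, as log2 KO over WT, and the difference between the groups was not tested. Tpsb2 was at -1.0 in mast-like and 0.23 in basophil-like barcodes, Mcpt4 at 0.15 and -1.46, and Prss34 at 0.57 and -0.26. Single barcodes carried several of these values. In KO mast-like barcodes 1 barcode held 154 of the 263 Prss34 UMIs, and without the highest barcode of each library the mast-like value was -0.07, so that Prss34 no longer pointed in opposite directions. In basophil-like barcodes 1 WT barcode held 413 of the 506 Mcpt4 UMIs, and the value without the highest barcodes was -2.48. With barcodes weighted equally, the basophil-like values of Tpsb2 and Prss34 were -0.97 and 0.06. Outside the kept barcodes, the summed mast proteases stood at 25478 CPM in WT against 6654 CPM in KO in barcodes of 300 to 999 UMIs, above the free RNA level in each library.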

How the results depend on the processing

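Of 498 alternative values for 61 results, 265 stayed within the counting interval of the reported value. Another 209 left it without being counted as turned, and 24 turned direction. A turn was counted only where the reported interval excluded 0. The 209 therefore include the basophil-like share with the gate at 2000 CPM, which changed sign. The causes were not tested. No paired analysis was possible because each group was 1 library and no test was made, and leaving out a replicate could not be done. Mast protease level (-0.45): -0.56 over 300 UMIs, 0.12 with a minimum at 0.1 of the 99th percentile, -0.16 under 5% mitochondrial UMIs, -0.47 without that filter, -0.26 with size factors and -0.43 without the highest Scrublet scores. Basophil protease level (-0.41): -0.22 with size factors and -0.36 without the highest barcode of each library. Mast-like share (-5.3 points): 1.04 with that minimum, -3.16 under 5% mitochondrial UMIs, -4.15 thinned before gating and -1.71 without the innate lymphoid gate. Basophil-like share (0.153): -0.426 with the gate at 2000 CPM and 0.644 without the innate lymphoid gate. Mast-like barcodes without Tpsb2 (37.2 points): 43.2 thinned before gating and 61.9 without the innate lymphoid gate. The minimum at 0.1 of the 99th percentile also turned Cma1 (0.23), Cpa3 in mast-like (-0.13), and Cma1 and the mast proteases in basophil-like barcodes (0.25 and 0.22), and the 300 UMI minimum turned Mcpt4 (-0.14). The alternatives that follow were chosen after seeing the data, as were the gate settings above. The gate at 500 CPM turned Mcpt4 and Cpa3 in mast-like (-0.07 and -0.02) and Tpsb2 in basophil-like barcodes (-0.10), and the gate at 2000 CPM turned Cma1 and the mast proteases in basophil-like barcodes (0.71 and 0.78). Without the innate lymphoid gate Mcpt4, Cpa3 and Fcer1a in mast-like barcodes were at -0.36, -0.31 and -0.24. With barcodes weighted equally, Mcpt8 and the basophil proteases in mast-like barcodes were at 0.02 and 0.08, and Tpsb2 and Prss34 in basophil-like barcodes at -0.97 and 0.06. Without the highest barcode of each library, Prss34 in mast-like barcodes was at -0.07. With free RNA taken at 50 to 99 UMIs, the log2 of kept over free was -0.14 for Tpsb2 in WT and 0.21, 0.06 and 0.22 for Cma1, Mcpt4 and the mast proteases in KO.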
